A study of Mus musculus with 8 samples.

Results

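B2m and Tfrc, 2 genes whose protein products sit at the cell surface, were followed in mouse skeletal muscle from birth to the young adult. They were found on the array by accession: a probe was taken where its RefSeq transcript, with the version removed, belonged to B2m (chromosome 2) or Tfrc (chromosome 16) in the RefSeq gene table of assembly GRCm38.p6. Each gene had 1 probe, printed at 20 positions on every array, out of 59709 probes in all, of which 123 carry a RefSeq accession. The RefSeq table lists 1 mRNA of B2m and 2 of Tfrc, and the Tfrc probe carries the accession of 1 of these. The study compared long noncoding RNAs of skeletal muscle between postnatal day 0 (D0) and postnatal day 65 (D65) in mice of the outbred ICR strain. No treatment or genetic change is given for either age, and 4 samples per age were each read on 1 array. Which muscle was taken, and whether each sample came from its own animal, is not given in the labels. The p-values below therefore cover sample-to-sample spread only, and part of that spread may be technical.

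B2m encodes beta-2 microglobulin, the light chain that pairs with the heavy chains of major histocompatibility complex class I and with relatives such as CD1, the neonatal Fc receptor and HFE. Class I molecules display peptides from inside the cell to CD8 T cells and need the light chain to reach the surface in a stable form, and interferons raise their transcription in many cell types. Tfrc encodes the transferrin receptor, which binds iron-loaded transferrin at the surface and carries it into endosomes, where the iron is released. Its mRNA is stabilised by iron regulatory proteins when a cell is short of iron, and it is abundant in dividing cells and red cell precursors, while muscle uses iron for myoglobin and for the mitochondrial respiratory chain. Both transcripts are common choices as reference genes for RNA measurements.

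The stretches before the annotated starts are shown because both genes had higher scaled levels at D65, so a reader can set the sequence beside the values. They are RefSeq sequences of GRCm38.p6 on the plus strand, B2m at chr2:122147437-122147686 and Tfrc at chr16:32608646-32608898. The Tfrc stretch takes in 3 bases of transcript from the first of its 2 annotated starts. Capitals mark matches to any of 8 motifs searched on both strands.
B2m: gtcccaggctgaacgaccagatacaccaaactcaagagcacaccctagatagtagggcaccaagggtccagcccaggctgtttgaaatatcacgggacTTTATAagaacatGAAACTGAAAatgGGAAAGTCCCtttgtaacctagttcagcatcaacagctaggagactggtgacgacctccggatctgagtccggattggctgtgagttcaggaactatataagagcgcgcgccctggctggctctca
Tfrc: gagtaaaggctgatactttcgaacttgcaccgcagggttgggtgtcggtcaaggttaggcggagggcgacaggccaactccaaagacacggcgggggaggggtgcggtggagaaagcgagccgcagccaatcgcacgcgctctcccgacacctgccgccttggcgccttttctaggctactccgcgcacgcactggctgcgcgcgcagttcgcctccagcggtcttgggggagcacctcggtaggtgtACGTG
The motifs were the interferon response element, the kappa B site bound by NF-kB, TTCNNNGAA (the STAT site), CACGTG (the E-box), ACGTG (the hypoxia response core, which every E-box holds), GGGCGG (the GC box), TGACGTCA (the cyclic AMP response element) and TATAAA (the TATA box). They were counted in windows from 250 bases before to 50 after each start. The B2m window held an interferon response match, GAAACTGAAA, whose first base lay at -139 from the start. Such a match occurred in 3.44% of 32851 RefSeq windows of this length. Just after it, at -126, lay a kappa B match on the minus strand, which 0.155% of all windows held. A TATA box match on the minus strand lay at -152, and 13.6% of windows held one. The Tfrc window at the first start held a single match, ACGTG at -2, which 19.6% of windows held. The window at the second Tfrc start held the same ACGTG at -228 and GGGCGG at -35 and 3, a motif in 35.7% of windows. G and C made up 52.3% of the B2m window and 66.0% and 70.0% of the Tfrc windows, against a median of 52.7% over all windows. These matches are letters only, and the series did not measure binding at them.

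The arrays shared 1 scan date and had different row and column positions, which were taken to be those of 1 slide. The D0 arrays lay on the first row and the D65 arrays on the second row, so slide row and age cannot be told apart. The share of probes well above background was 63.1% to 68.4% at D0 and 52.3% to 60.7% at D65. The number of arrays limits the precision. D0 replicate 4 differed from the remaining arrays of its age. Its Spearman correlation with them over the tested probes was 0.886 to 0.913, while theirs with each other was 0.942 to 0.973. It also had a lower brightness, with a 75th percentile of log2 signal of 7.09 against 8.0 or more on the other D0 arrays. The age differences of B2m, of Tfrc and of their ratio are therefore also given without it.

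B2m was measured far above background. Over the 8 arrays 160 of 160 spots were well above background, none was marked as an outlier and none was saturated. The mean signal of B2m was 414 to 884 times the 95th percentile of the 1200 negative control spots on its array. The level used here is the mean log2 processed signal over the 20 spots minus the 75th percentile of all probes on that array. At D0 the B2m level was 6.27, 6.34, 6.73 and 6.92 on replicates 1 to 4. At D65 it was 7.88, 7.38, 7.51 and 7.43. The lowest D65 array lay 0.46 above the highest D0 array, and the highest array of all was D65 replicate 1.

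The level of B2m, the class I light chain, thus rose with age on the scaled values, and with no scaling the difference was 0.22 and not called (limma adjusted p = 0.498). Its mean was 6.57 ± 0.31 on the D0 arrays and 7.55 ± 0.23 on the D65 arrays (SD, n = 4 each). The difference was 0.98 on the log2 scale (SE 0.23, 95% interval 0.47 to 1.49), a 1.98-fold rise, with a limma adjusted p of 0.00939 over 34948 probes. An exact two-sided permutation test of the 8 arrays gave p = 0.0286, the smallest this design can give. Without D0 replicate 4 the difference was 1.102 (limma adjusted p = 0.00364). In bulk tissue, more cells of a type that expresses a gene and more of its RNA per cell cannot be told apart, here or for Tfrc.

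Tfrc was also bright on every array, with 160 of 160 spots well above background, no outlier and no saturated spot. Its mean signal was 906 to 1293 times the 95th percentile of the negative control spots. At D0 the Tfrc level was 7.23, 7.67, 7.37 and 8.09 on replicates 1 to 4. At D65 it was 8.26, 8.19, 8.45 and 8.29. The D65 arrays lay close together, and D0 replicate 4 came within 0.11 of the lowest of them, so the ages did not overlap but were separated by a narrow gap.

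The level of Tfrc, the receptor for iron-loaded transferrin, also rose on the scaled values, from a mean of 7.59 ± 0.38 over the D0 arrays to 8.30 ± 0.11 over the D65 arrays (SD, n = 4 each). The difference was 0.71 (SE 0.23, 95% interval 0.20 to 1.23), a 1.64-fold rise, with a limma adjusted p of 0.0402. The exact permutation test again gave 0.0286, the smallest possible. The rise holds on the scaled values only: with no scaling the ages overlapped and the difference was -0.05 (limma adjusted p = 0.873). Without D0 replicate 4 the difference was 0.88 (limma adjusted p = 0.00567). Leaving out any of the other 7 arrays ended the call, with limma adjusted p between 0.0710 and 0.113. The differences were then between 0.59 and 0.75, on both sides of 0.71, so the call needed each of these arrays. Calls over all tested probes fell as well, from 10658 to between 8055 and 9444. B2m stayed called whichever single array was left out (limma adjusted p = 0.00364 to 0.0311).

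**Figure D1:**
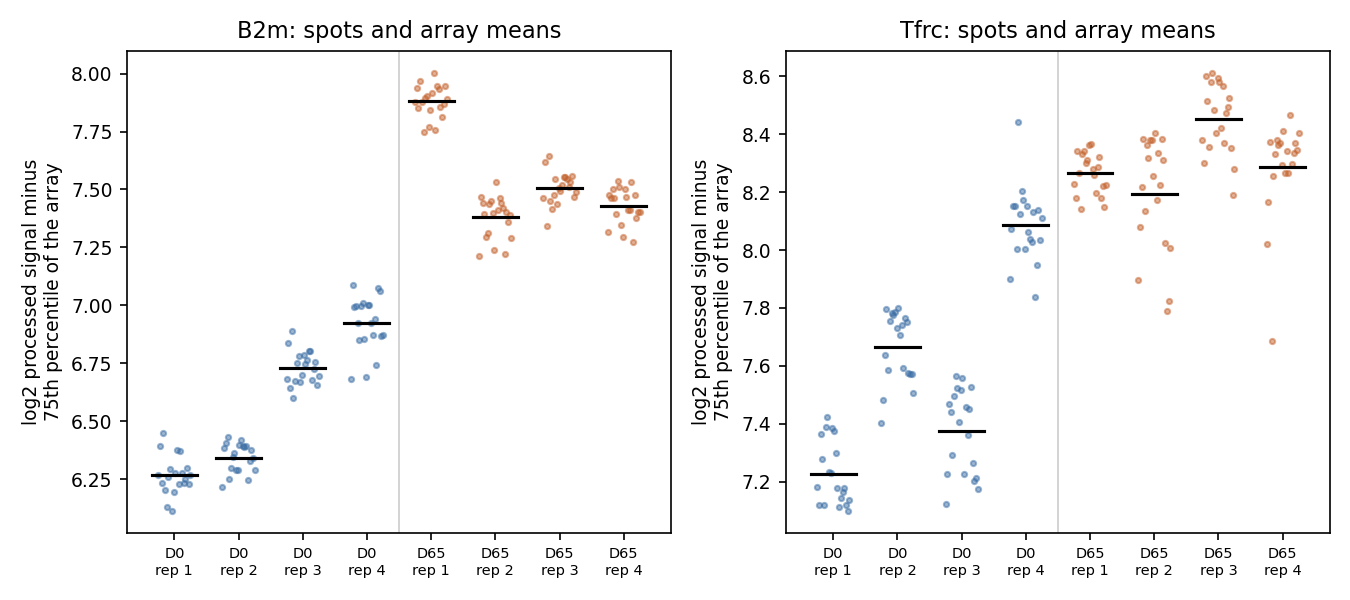
Scaled log2 level (vertical axis, log2 processed signal minus the 75th percentile of the array) of B2m on the left and Tfrc on the right, by array (horizontal axis). Points are the 20 spots of each array, blue for D0 and orange for D65, and black lines are the array means. The D65 lines lie above every D0 line, by 0.46 for B2m and 0.11 for Tfrc.

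Calls were common on this array. Of the tested probes 14.7% were called higher at D65 at an adjusted p under 0.05 (30.5% in either direction), and 15.1% were higher with no overlap between the ages (31.5% in either direction). Both B2m and Tfrc meet these rules, and the background shares are large enough that the call itself says little about the pair. A difference at least as large as that of B2m was seen in 11.4% of the tested probes, and one as large as that of Tfrc in 18.5%. A second rule that also asks for an absolute difference of at least 1 called 22.1% of the tested probes in either direction, and 9.57% of the tested probes as higher at D65. Neither B2m nor Tfrc met that rule.

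The sizes, and for Tfrc the direction, depend on the scaling of the arrays, because the arrays differed in brightness. The 75th percentile of log2 signal was 7.86 ± 0.53 at D0 and 7.10 ± 0.15 at D65 (SD, n = 4), lower at D65 by a mean difference of -0.77 (exact two-sided permutation p = 0.0857, smallest possible 0.0286). D0 replicate 4, at 7.09, lay within the D65 range of 6.91 to 7.24. The bright corner control spots were dimmer at D65 as well. Their median processed signal was 11190 to 16920 on the D0 arrays, lowest on D0 replicate 4, and 7563 to 10460 on the D65 arrays. Whether this and the lower 75th percentile share a source was not tested. With no scaling, the log2 signal of B2m was 14.36, 14.61, 14.73 and 14.01 at D0 and 14.93, 14.29, 14.69 and 14.67 at D65. The ages overlapped, and the highest and the lowest array were D65 replicate 1 and D0 replicate 4. The unscaled signal of Tfrc was 15.32, 15.94, 15.37 and 15.18 at D0 and 15.31, 15.11, 15.64 and 15.53 at D65. These also overlapped, with D0 replicate 2 highest and D65 replicate 2 lowest, and the direction of the difference turned. The probes as a whole moved with the scaling: the median difference of all tested probes was 0.06 with the 75th percentile and -0.70 without scaling. Without scaling 7.81% of the called probes were higher at D65, against 48.1% with the 75th percentile.

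**Figure D2:**
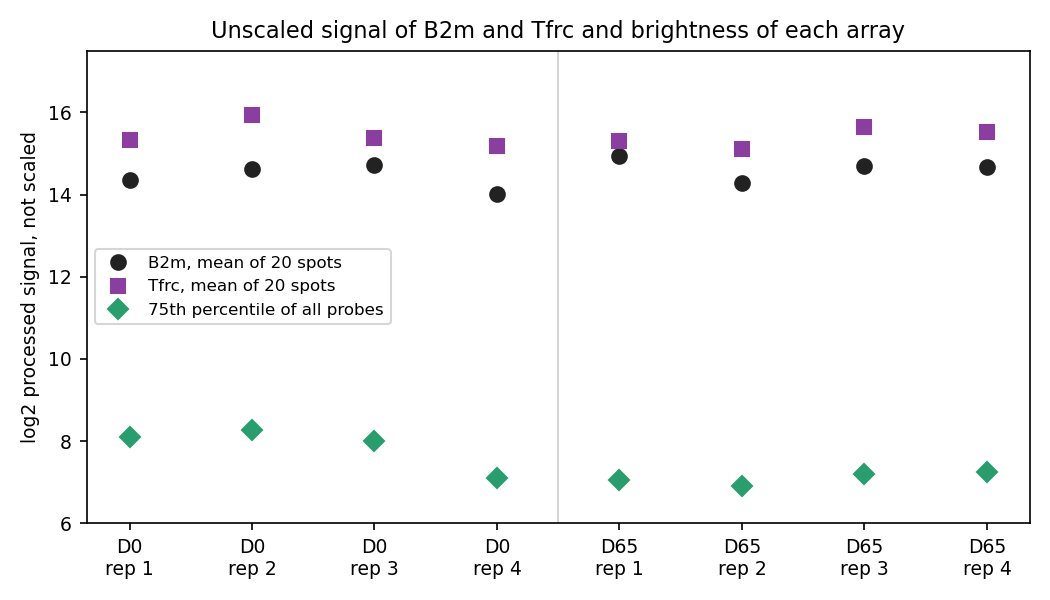
Log2 processed signal before any scaling (vertical axis) on each array (horizontal axis), as the mean of 20 spots for B2m (circles) and Tfrc (squares) and as the 75th percentile of all probes (diamonds). The member signals of the ages overlap. The 75th percentile lies at 8.0 or more on D0 replicates 1 to 3, at 7.09 on D0 replicate 4 and at 6.91 to 7.24 on the D65 arrays. The levels of the 2 probes are not comparable with each other.

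Read against the median of all tested probes, the difference was 0.92 for B2m and 0.65 for Tfrc. This quantity cannot tell the scalings that subtract 1 value per array apart, no scaling among them, since that value leaves the median as well. Over the 17 other settings, which include these, it ran from 0.58 to 1.07 for B2m and from 0.29 to 0.78 for Tfrc, the low ends both from normexp background correction followed by the 75th percentile. Another scaling used 12 of the other genes printed at 20 positions, those well above background on all arrays. It gave larger differences, 2.17 for B2m and 1.90 for Tfrc (limma adjusted p = 0.00054 and 0.00131). With that scaling the median of all tested probes was itself 1.26 and 93.8% of the called probes were higher at D65. Quantile normalization gave 1.09 for B2m (limma adjusted p = 0.00188) and 0.83 for Tfrc (limma adjusted p = 0.0150). Normexp with the 75th percentile gave 0.78 for B2m, still called, and 0.49 for Tfrc, which lost its call (limma adjusted p = 0.0667). Tfrc also lost its call without the filter on dim probes (limma adjusted p = 0.0706).

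**Figure D3:**
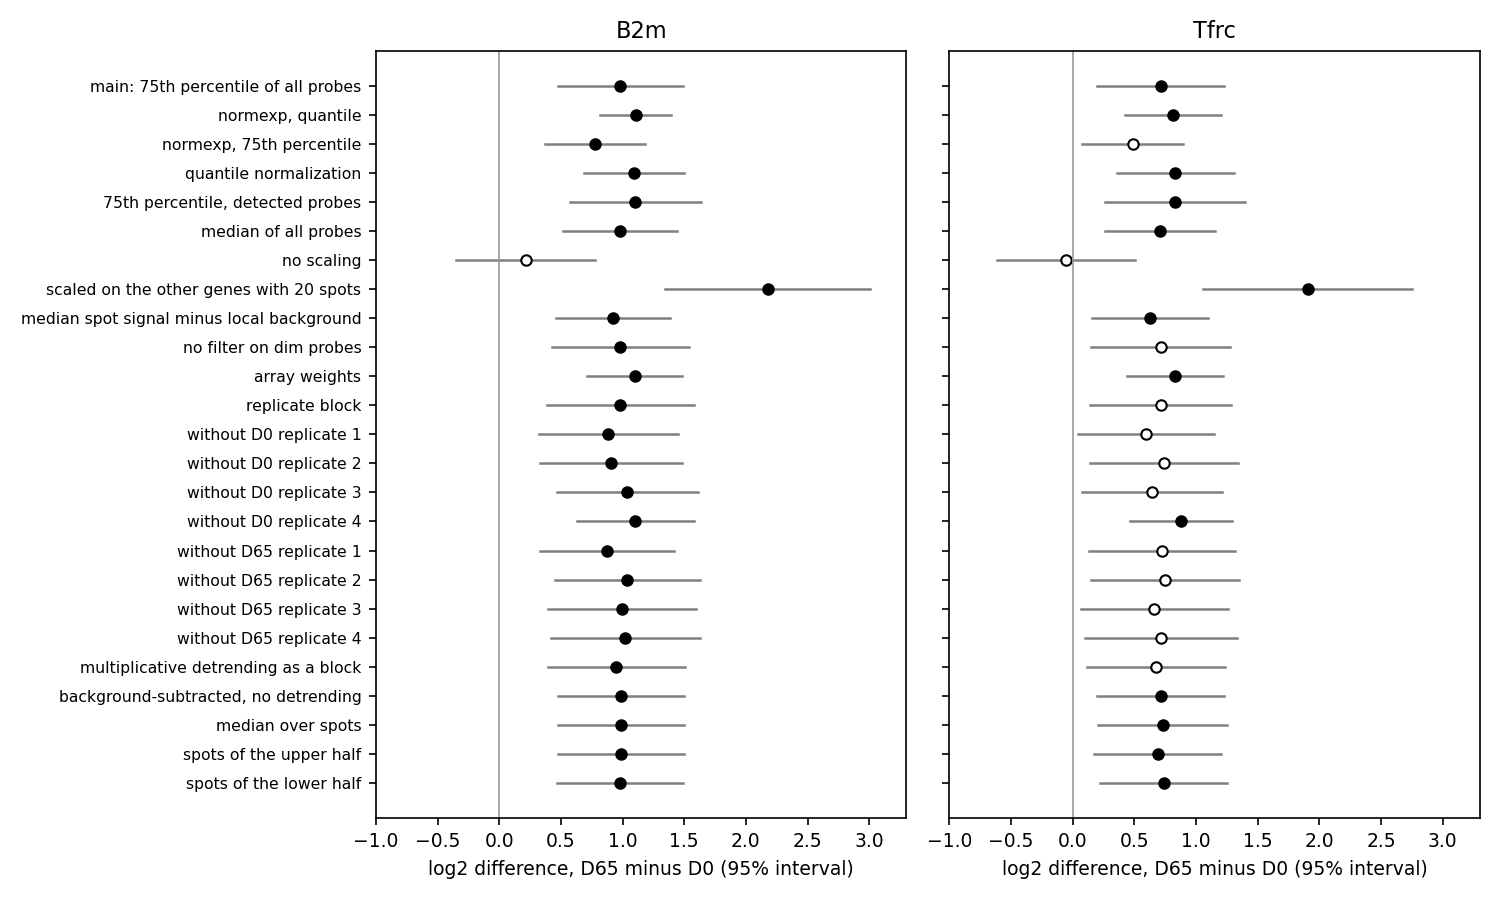
Log2 difference, D65 minus D0 (horizontal axis), with its 95% interval for B2m on the left and Tfrc on the right under each setting (vertical axis); the one that keeps outlier-marked spots equals the main setting and is not drawn. Filled circles are called at an adjusted p under 0.05 and open circles are not. B2m is open only with no scaling, while Tfrc is open in 12 settings, among them 7 of the 8 that leave out 1 array.

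The 20 spots of each probe gave a measure of the technical error within an array. The SD between the B2m spots of an array was 0.06 to 0.12, with a median of 0.07. For Tfrc it was 0.07 to 0.20, with a median of 0.12. The SD between arrays of an age was larger, 0.27 for B2m and 0.28 for Tfrc. This was 16.4 times the median standard error of the 20-spot mean for B2m and 10.01 times that for Tfrc. The spread between arrays and not the spot noise therefore sets the error of the age difference, and spots were not used as replicates.

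Every position of B2m gave a higher mean at D65, 20 of 20, with differences from 0.92 to 1.03 and a median of 0.99. At each of these 20 positions the ages did not overlap. The highest B2m spot at D0 stood at 7.09 and the lowest at D65 at 7.21, so no D0 spot reached a D65 spot. Tfrc was also higher at 20 of 20 positions, with differences from 0.55 to 0.79 and a median of 0.72, and the ages did not overlap at 14 of them. Here single spots did overlap: the highest D0 spot, on replicate 4, stood at 8.44 and the lowest D65 spot, also on replicate 4, at 7.69. The upper and lower part of the array gave similar values, 0.99 from 11 spots and 0.98 from 9 for B2m, and 0.69 and 0.74 from 10 spots each for Tfrc. The positions share their RNA sample, so they repeat the measurement and not the experiment.

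**Figure D4:**
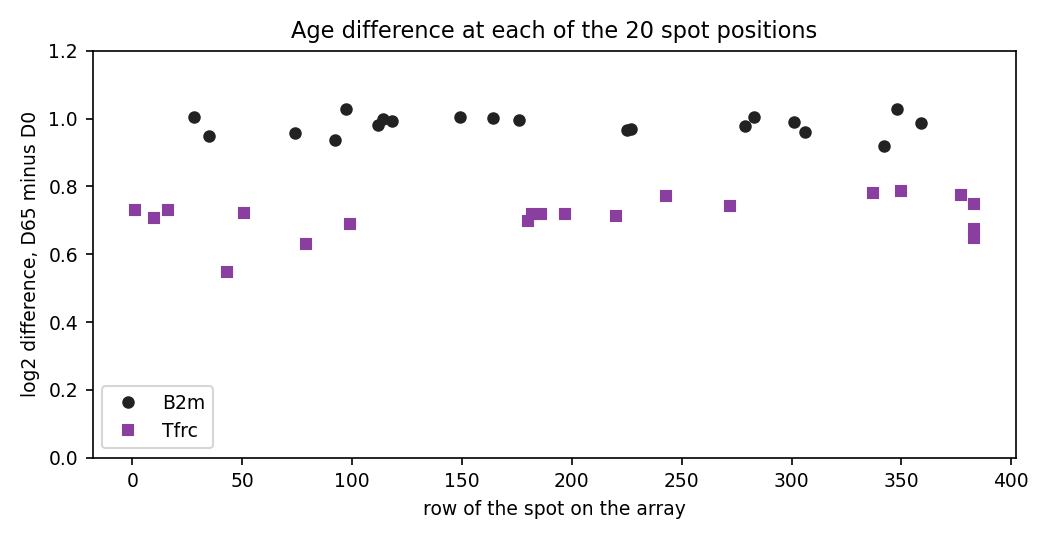
Age difference at each of the 20 spot positions of B2m (circles) and Tfrc (squares), as the mean of 4 D65 arrays minus the mean of 4 D0 arrays (vertical axis, log2), against the row of the spot on the array (horizontal axis). All positions lie above 0, between 0.92 and 1.03 for B2m and between 0.55 and 0.79 for Tfrc.

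Arrays of the same slide column, one of each age, were also set side by side. The B2m difference was 1.61, 1.04, 0.77 and 0.51 in columns 1 to 4. The Tfrc difference was 1.04, 0.53, 1.08 and 0.20. Each gene was higher at D65 in 4 of 4 columns, and each had its smallest difference in column 4, which holds D0 replicate 4. With the slide column, which is also the replicate number, as a block, B2m stayed called (limma adjusted p = 0.0280) and Tfrc did not (limma adjusted p = 0.0681). The scanner software had applied a smooth multiplicative correction across the surface on 5 arrays, not on D0 replicates 2 and 3 and D65 replicate 2. Among the corrected arrays (2 of D0 and 3 of D65) the difference was 1.01 for B2m and 0.68 for Tfrc. Among the others (2 of D0 and 1 of D65) it was 0.84 and 0.67. With the correction as a block, B2m stayed called at 0.95 (limma adjusted p = 0.0200) and Tfrc, at 0.68, did not (limma adjusted p = 0.0719).

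Whether the pair changed unequally was asked within each array, where most of the scalings cancel. The log2 level of B2m minus that of Tfrc was -1.02 ± 0.29 at D0 and -0.75 ± 0.25 at D65 (SD, n = 4), where only the change carries meaning because the probes are not comparable. The ages overlapped, from -1.32 to -0.64 at D0 and from -0.95 to -0.38 at D65. The change was 0.27 (95% interval -0.20 to 0.74, exact two-sided permutation p = 0.229), so a larger rise of B2m than of Tfrc was not shown, and the interval also leaves room for one. Without D0 replicate 4 the change was 0.22 (exact permutation p = 0.40). It was 0.15 without D65 replicate 1, 0.17 without D0 replicate 2 and 0.40 without D0 replicate 3 (exact permutation p = 0.429, 0.429 and 0.0571).

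B2m and Tfrc belong to a group of 15 genes that are printed at 20 positions, most of them common reference genes. Of the other 13, Gapdh, a glycolytic enzyme, was called higher at D65, 8 were called lower and 4 were not called. Ldhal6b, a lactate dehydrogenase-like gene counted among the 8, was not well above background on all arrays and entered the test through its D0 values, and with normexp and the 75th percentile it stood at 0.10 and was not called. The differences of the 13 ran from -2.22 for Tuba1b, an alpha-tubulin, to 0.72 for Gapdh, with a median of -0.91. By size of the difference B2m ranked 1 of the 15, Gapdh 2 and Tfrc 3. Scalings by 1 value per array cannot change these ranks. Under the 5 other settings that can, those with quantile normalization or another background treatment, B2m had rank 1 and Tfrc rank 2 or 3. Gapdh lost its call with quantile normalization (0.03), with normexp and quantile normalization (-0.01) and without scaling (-0.05). It kept the call under the other scalings, among them normexp with the 75th percentile (0.50, limma adjusted p = 0.0356). The counts for the other 13 moved too, to 0 higher and 10 lower without scaling. They moved to 3 higher and 1 lower when scaled on 12 of these genes, all but Ldhal6b. Over all tested probes the shares called higher and lower were 14.7% and 15.8% with the 75th percentile, 3.04% and 35.9% without scaling, and 65.7% and 4.32% when scaled on those 12 genes. Actin beta (Actb), the ribosomal protein gene Rpl13a and Hprt, a purine salvage enzyme, lay at -1.13, -1.49 and -1.55 with the 75th percentile.

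**Figure D5:**
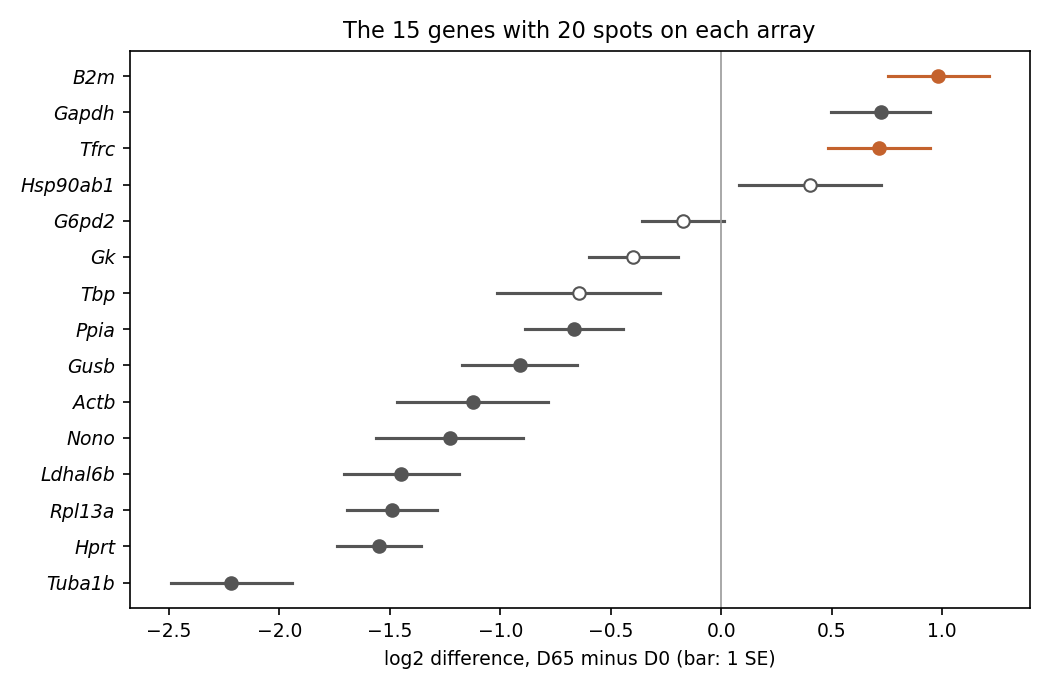
Log2 difference, D65 minus D0 (horizontal axis), for the 15 genes printed at 20 positions (vertical axis), scaled on the 75th percentile of each array. Bars show 1 SE, filled circles are called by limma at an adjusted p under 0.05 and open circles are not, and orange marks B2m and Tfrc. B2m lies at 0.98 and Tfrc at 0.71, while the other 13 run from -2.22 to 0.72.

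The genes whose profile over the 8 arrays was nearest to each of the pair were ranked among 72 other named genes by the root mean square distance between centred log2 levels. Nearest to B2m were Gm21953, a predicted gene, at 0.24, Gapdh at 0.26 and Tfrc at 0.27, where the median over the genes was 0.81. Scalings by 1 value per array cannot change these distances, and under the 5 other settings that can, Gm21953 was again nearest to B2m. It was also called higher at D65, by 1.27 (limma adjusted p = 0.00169), though not without scaling, where it stood at 0.50 (limma adjusted p = 0.131). Nearest to Tfrc were Gapdh at 0.20, Taf1a, a subunit of the RNA polymerase I factor SL1, at 0.23 and Gm16513, another predicted gene, at 0.27, with a median of 0.69. B2m had rank 4, also at 0.27. Taf1a and Gm16513 were not called themselves, with differences of 0.56 and 0.60 (limma adjusted p = 0.140 and 0.138). With quantile normalization B2m was nearest to Tfrc and Gapdh left the first 3. These distances describe 8 arrays that fall into 2 ages, so any gene that differs by a like amount lies near.

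The partners of B2m and Tfrc could not be followed. Of 25 antigen presentation genes, such as the class I heavy chains, the peptide transporters Tap1 and Tap2 and the immunoproteasome subunits, only B2m has a named probe. Of 23 gene names for iron uptake and storage, such as ferritin chains, ferroportin and the iron regulatory proteins, only Tfrc has one. Mfrn1 and Slc25a37 in that list name the same gene. No named probe covers any of 14 interferon response genes, 15 muscle fibre markers, 11 leukocyte markers, 10 erythroid markers, 6 endothelial markers or 6 proliferation markers. The tissue label could therefore not be checked against its defining markers. Of 8 lymphatic markers 3 have a probe, Ccl21b, Ccl21c and Gm13304, near-identical copies of the chemokine CCL21 that cannot be separated here. These were called higher at D65, by 4.21, 3.24 and 4.24 (limma adjusted p = 4.6e-05, 7.1e-05 and 3.4e-05), and they stayed higher under each scaling. Their part in the B2m and Tfrc results was not tested.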

How the data were processed

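Each of 8 samples (4 at D0, 4 at D65) was read on a 1-colour Agilent array. Per the labels' protocols, DNA and ribosomal RNA were removed from total RNA, which was then amplified by random priming to cRNA carrying Cy3. Per the file headers, the authors' scanner files came from Feature Extraction 11.0.1.1 with a grid built on mm9, and per the file headers they hold spot intensity after background subtraction and detrending, with median spot and local background intensity. They also hold other columns deposited as flags for background, saturation and outliers. The authors' deposited value table was not used here.

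Log2 processed signal was averaged over the spots of a probe, without control and outlier spots, and the 75th percentile over all probes of an array was subtracted. A probe entered the tests if either age had it well above background on all 4 of its arrays, which held for 34948, and 28106 passed on all 8. B2m and Tfrc passed on all 8. The age difference was fitted by lmFit and eBayes of limma 3.58.1, run in R 4.3.3, with Benjamini-Hochberg adjustment over all these probes. The code of this step was run on simulated data. That simulation gave all probes the same spread and set larger changes than those of B2m and Tfrc, so it does not test their calls. The ratio was tested by an exact two-sided permutation test. Distances, counts and motifs were computed in Python 3.11.15.

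Named genes were B2m, Tfrc, the other genes with 20 spots, members of the fixed lists with a named probe, and the 3 nearest profiles of each. The members, lists and tests were chosen with earlier results of these data known. Of 123 RefSeq probes 116 matched a symbol. Promoters are RefSeq windows of GRCm38.p6, and no position on mm9 is given. Alternatives changed the background correction, scaling, filter, model, spots and arrays used. Replicate numbers are shared between the ages and with the slide columns. Deviations from the group means correlated at -0.12, 0.24, 0.28 and -0.13 for numbers 1 to 4, so the numbers were not taken to pair the samples.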

Additional observations from a re-analysis of the deposited data

How the results depend on the processing

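B2m kept its direction and call under 16 of 17 alternatives, and with no scaling it stood at 0.22 (limma adjusted p = 0.498). It reached 1 or more under 5 of the 17. The 17 include keeping outlier-marked spots, which equals the main setting because neither gene had such a spot. They also include settings that only change which spots of each gene were averaged, or how. Tfrc kept its direction and call under 12 of 17. It lost the call at 0.49 (normexp, 75th percentile), 0.71 (no filter on dim probes) and 0.68 (multiplicative detrending as a block), and with no scaling it turned to -0.054 (limma adjusted p = 0.873). The causes were not tested. The setting without a filter adjusts over more probes, and it also gave Tfrc a larger SE, 0.25 against 0.23 in the main setting. Leaving out 1 array gave 0.87 to 1.102 for B2m, 0.59 to 0.88 for Tfrc, 8055 to 14573 called probes and 0.15 to 0.40 for the change of the ratio. The count of called probes, 10658 (5122 higher and 5536 lower), became 24482 (22973 higher, 1509 lower) when scaled on 12 of the other genes with 20 spots. It became 17453 with array weights and 13619 (1064 higher, 12555 lower) with no scaling. The change of the ratio was 0.24 to 0.30 over 10 alternatives. Its exact permutation p was 0.171 to 0.286, leaving aside the replicate block, which was tested by sign flips. With the replicate number as a block, a pairing the data do not bear out, B2m stayed called (limma adjusted p = 0.0280), Tfrc at 0.71 did not (limma adjusted p = 0.0681), 9889 probes were called, and the ratio gave an exact sign-flip p of 0.375 (smallest 0.125). In that check D0 replicates 2 and 3 matched their own number best and D0 replicates 1 and 4 did not. Scaling on the E1A spike-in spots was not run, since their median signal lay at 3.32 to 4.58, at the level of the negative controls. The ERCC spike-in spots had a median signal of 6.31 to 11.86 over the arrays and were not used for scaling either. Of these 15.95% to 35% were well above background on an array, against 8.67% to 18.4% of the negative control spots. The detrending settings were chosen after seeing the data.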
